A study of Mus musculus with 4 samples.

Results

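The genes of translation initiation and elongation were read in RNA bound to ribosomes, taken from the deep nuclei through which the cerebellum sends its output. Members were all gene names of the count files that begin with Eif1 to Eif6 (without Eif2s3x and Eif2s3y), or with Eef1 or Eef2, together with Etf1, Gspt1, Gspt2, Pabpc1 to Pabpc5, Paip1, Paip2 and the Larp1 to Larp7 names. The rule used names alone, and it found 78 members among 32531 named genes. All samples came from untreated adult mice of the transgenic line Slc17a6-TRAP JX883, in which ribosomes carry the ribosomal protein L10a fused to EGFP. Tagged polysomes were captured with anti-EGFP antibodies, a method called translating ribosome affinity purification (TRAP). The 4 libraries form 1 group and each pooled 3 mice. Their titles carry the numbers 1300, 1301, 1302 and 1476 (replicates 1 to 4). What these numbers stand for is not given, and a batch could not be told apart from replicate 4 itself. Strain background, exact age and how mice were divided between pools are not given, and neither is which cells of the tissue carry the transgene. No input RNA, second genotype or treatment was analysed here, so levels, ratios of related genes and the contrast of a library with the remaining 3 are what the data can give. With nothing to say that the pools were separate animals, p-values measure only the spread between these samples.

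Translation begins when eIF2 brings the initiator tRNA to the small ribosomal subunit, with eIF1, eIF1A, eIF3 and eIF5 guiding the choice of start codon. The eIF4F complex of a cap-binding protein (eIF4E), a scaffold (eIF4G) and a helicase (eIF4A) recruits the mRNA, and poly(A)-binding proteins hold its other end. The eEF1 complex then delivers aminoacyl-tRNAs, eEF2 moves the ribosome along, and eRF1 and eRF3 end the chain. Neurons regulate these steps through mTORC1, which acts on eIF4E-binding proteins, and through kinases that phosphorylate eIF2 or eEF2. Several factors are encoded by gene pairs of which 1 copy is best known from neurons or muscle, such as Eef1a2.

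The pairs Eef1a1 and Eef1a2, Eif4a1 and Eif4a2, Eif5a and Eif5a2, Eif1 and Eif1b, and Gspt1 and Gspt2 encode close protein relatives. Their ratios below depend on reads being able to tell them apart, and the read length is not given. A coding stretch of 60 bases near the middle of the coding sequence is shown for each to let the eye compare them (GENCODE M21 transcripts, mm10, 5′ to 3′ on the coding strand). Capitals mark bases that differ within the pair.
Eef1a1: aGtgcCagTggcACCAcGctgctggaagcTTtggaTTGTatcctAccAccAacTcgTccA
Eef1a2: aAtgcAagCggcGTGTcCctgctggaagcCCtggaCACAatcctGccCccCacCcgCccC
Eif4a1: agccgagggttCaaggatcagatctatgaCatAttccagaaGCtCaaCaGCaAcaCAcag
Eif4a2: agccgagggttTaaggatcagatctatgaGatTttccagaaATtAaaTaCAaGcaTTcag
Eif5a: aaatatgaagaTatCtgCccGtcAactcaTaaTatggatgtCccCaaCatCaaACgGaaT
Eif5a2: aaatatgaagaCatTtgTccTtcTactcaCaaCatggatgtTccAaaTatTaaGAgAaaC
Eif1: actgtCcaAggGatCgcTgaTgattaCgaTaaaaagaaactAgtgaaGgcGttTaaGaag
Eif1b: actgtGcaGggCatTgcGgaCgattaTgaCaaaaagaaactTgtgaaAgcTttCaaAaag
Gspt1: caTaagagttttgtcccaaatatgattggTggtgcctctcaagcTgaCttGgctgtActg
Gspt2: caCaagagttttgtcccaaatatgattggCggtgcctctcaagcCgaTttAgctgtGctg
The Eef1a1 stretch lies in exon 5 at chr9:78479673-78479732 on the minus strand and the Eef1a2 stretch in exon 5 at chr2:181150968-181151027 on the minus strand, and they differ at 20 of 60 bases. The Eif4a1 stretch (chr11:69668644-69668703, minus strand) and the Eif4a2 stretch (chr16:23110284-23110343, plus strand) both lie in exon 6 and differ at 12 bases. The Eif5a stretch is in exon 4 (chr11:69917926-69917985, minus strand) and that of Eif5a2 in exon 3 (chr3:28782764-28782823, plus strand), with 15 differences. The Eif1 stretch (chr11:100320770-100320829) and the Eif1b stretch (chr9:120494211-120494270) are both in exon 2 on the plus strand, with 13 differences. Gspt1 is shown from exon 7 (chr16:11232532-11232591, minus strand) and Gspt2 from its exon 1 (chrX:94637139-94637198, plus strand), with 6 differences. Over the whole aligned coding sequence the identity was 80.6% for Eef1a1 and Eef1a2, 78.6% for Eif4a1 and Eif4a2, 73.2% for Eif5a and Eif5a2, 81.1% for Eif1 and Eif1b and 84.7% for Gspt1 and Gspt2. In each of these pairs 0 of the 50-base windows of either coding sequence occurred in the other. Eif3j1 and Eif3j2 were the opposite case, identical over all 783 aligned coding bases, so the split of reads between them is uncertain.

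Other copies bear on some counts. Of the 50-base windows of the longest transcript, 60.6% in Eef1a1, 64.3% in Eef1g, 69.8% in Pabpc4, 33.3% in Eif4a1 and 31.6% in Eif1 also occurred in annotated transcripts of other genes. By number, most of the sharing genes were pseudogenes for each of these members. By share of windows, the largest was the protein-coding gene Emd for Eif1 (15.9%) and the processed transcript Gm10110 for Pabpc4 (67.6%). For Eef1a2 the share was 0.0%, for Eif4a2 12.7% and for Eef2 7.9%. Reads that match several places may be dropped by the counting, and reads assigned to more than 1 place made up 14.2 to 20.6% of counted reads in these libraries. The levels of Eef1a1, Eef1g, Eif1, Eif4a1 and Pabpc4 are therefore uncertain. Exons of 19 members also overlap those of a gene on the opposite strand, and the use of strand in counting is not given, so reads of both cannot be told apart there. Another 13 members, with some in common, overlap a gene on their own strand. The longest overlaps were 2151 bases in Eif3d, 1643 in Eif5b (with Rev1), 1107 in Eif3j1 and 659 in Eif2ak1 (with Aimp2 and Ankrd61).

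The libraries held 9621762, 10306407, 10436291 and 10988373 counts on named genes (replicates 1 to 4), and 3 counts, the most that a count of 0 allows, equal 0.312, 0.291, 0.287 and 0.273 counts per 1000000 (CPM). These limits cover counting error only. Rn45s, the ribosomal RNA precursor, took 4.99, 14.2, 13.6 and 4.92% of counts and is part of every CPM total. Libraries correlated at 0.870 (replicates 3 and 4) to 0.937 (replicates 1 and 2) on log2 CPM, and all pairs differed by more than sampling noise. Slc17a6, the glutamate transporter gene for which the line is named, was at 2011 to 2309 CPM. The 8 markers of glutamatergic nuclear neurons, Slc17a6 among them, summed to 2483 to 3050 CPM, and all 8 reached 1 CPM in every library. Most of that sum was Slc17a6 itself. The others were lower, from Meis2 at 226 to 446 CPM down to Irx3 at 2.81 to 12.3 and Tbr1 at 1.25 to 13.7 CPM. Markers of other cells were also present, and 6 of 7 such lists, all but the vessel list, had their highest sum in replicate 3. Purkinje cell markers (7 genes) summed to 1356, 1641, 3287 and 1160 CPM, inhibitory neuron markers (6 genes) to 282, 375, 580 and 313 CPM, granule cell markers (7 genes) to 624, 735, 1326 and 591 CPM, and astrocyte markers (9 genes) to 343, 404, 665 and 305 CPM. Oligodendrocyte markers (8 genes) summed to 515, 758, 1237 and 1067 CPM. The 7 microglia markers summed to 4.16 to 14.3 CPM, with C1qa at 0 in every library. The 7 vessel markers summed to 51.7, 13.2, 47.7 and 31.0 CPM, highest in replicate 1. In bulk RNA of this kind, fewer cells of a type and less RNA per cell cannot be told apart.

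Translation factor genes were broadly present. Of the 78 members, 71 reached 1 CPM in every library, where 34.5% of all named genes did. No count was seen for Eif4e1b, an oocyte-type cap-binding gene, Eif4ebp3, Pabpc2 or Larp2, and the last has no gene model in the annotation. Below 1 CPM in some library were Eif4ebp1, Eef2kmt, the methyltransferase of eEF2, and Eif3j2. Together the members took 1.05, 0.898, 0.923 and 0.920% of assigned counts in replicates 1 to 4. Levels of different genes were compared as counts per kilobase of union exon length per 1000000 counts (RPKM). On that scale the median over the 74 detected members with a length was 12.8 RPKM, beside 2.64 RPKM over 16574 detected genes, and 25 members lay in the top 10% of detected genes. Union exon length counts every annotated exon, and levels were therefore also divided by the length of the principal coding transcript, an alternative added after the data were seen. That length is given beside each pair ratio that it moved by more than the SD between libraries. It is given beside some of the orders of genes that it changed, not beside all. Values below are RPKM by union exon length, mean ± SD over n = 4 libraries, unless stated.

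**Figure D1:**
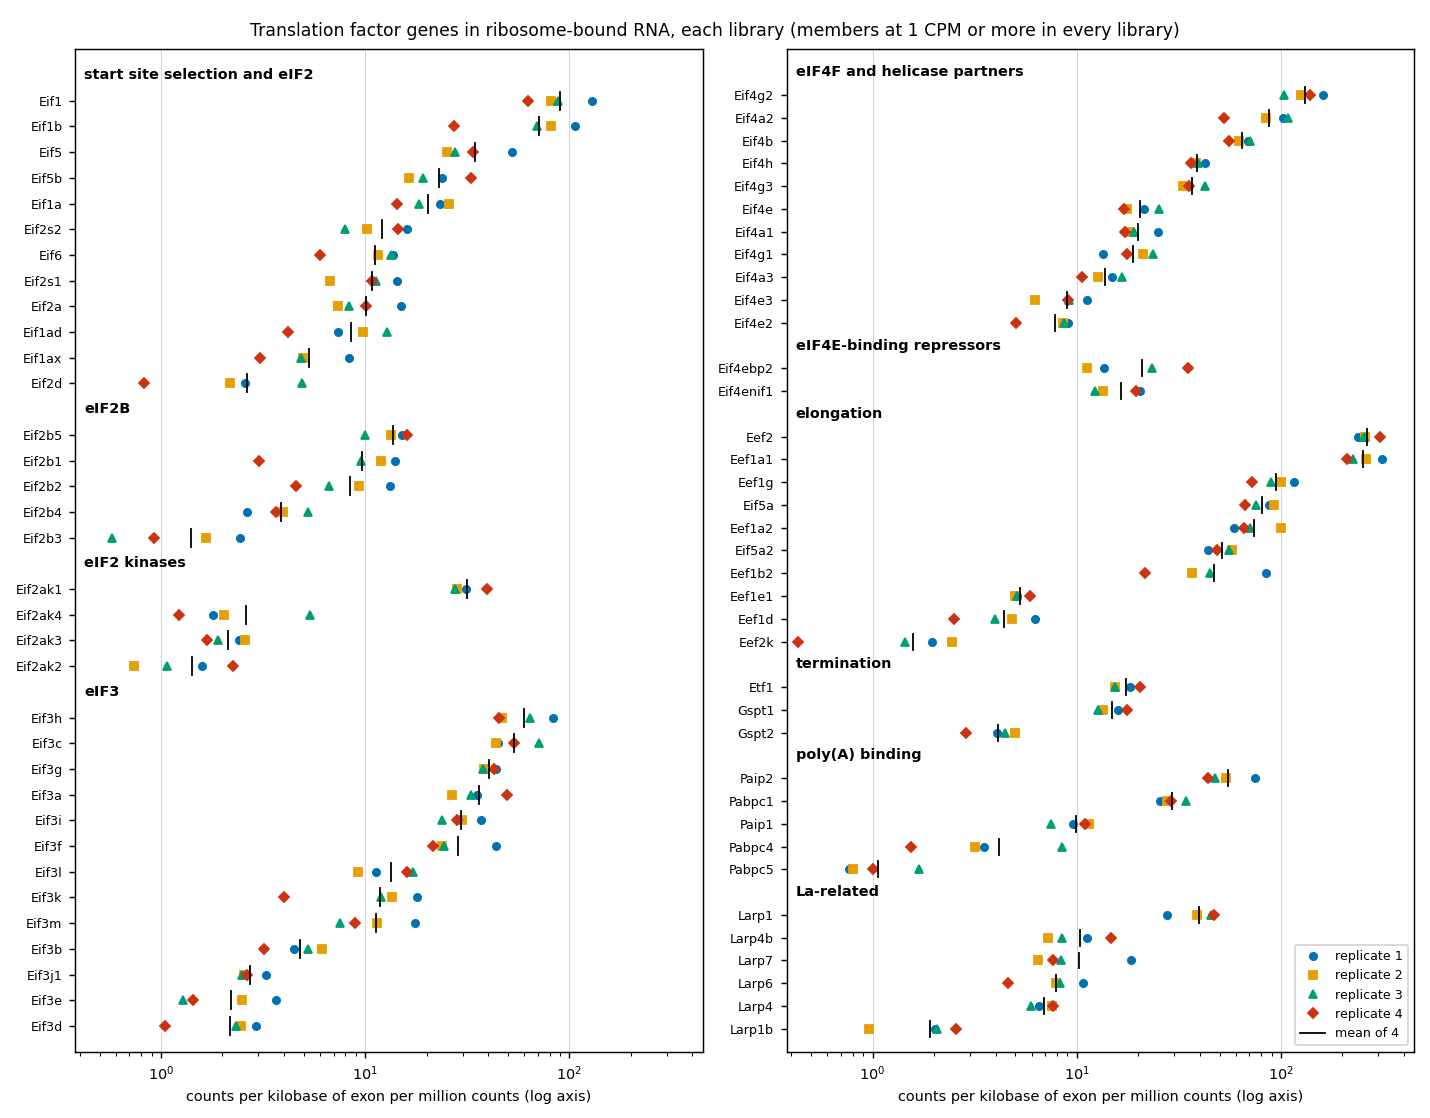
Level of each translation factor gene that reached 1 CPM in every library, in RPKM (log axis), grouped by role; symbols are the 4 replicates and the bar is their mean. Eef2 and Eef1a1 lie furthest right, and replicate 4 (red diamonds) lies apart to the left for Eif1b, Eif2b1, Eif3k and Eef2k.

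Per length, the elongation factor genes Eef2 and Eef1a1 were the most abundant members. In CPM, which is not divided by length, Eif4g2 was the highest member in each library. It stood at 1624, 1270, 1046 and 1407 CPM in replicates 1 to 4, against 794, 857, 845 and 1017 CPM for Eef2. Eef2, the translocase (chr10:81176631-81182498, plus strand), stood at 239, 258, 254 and 306 RPKM in replicates 1 to 4, a mean of 264 ± 29.0. Eef1a1, which carries aminoacyl-tRNA to the ribosome (chr9:78478449-78489151, minus strand), stood at 314, 262, 224 and 210 RPKM, a mean of 252 ± 46.5. The ranges of Eef2 and Eef1a1 overlap, and their order differed between libraries, with Eef1a1 higher in replicates 1 and 2. By principal transcript length Eef1a1 was at 351 and Eef2 at 284 RPKM. Eef1a2, the paralog that replaces Eef1a1 in mature neurons and muscle (chr2:181147653-181157014, minus strand), stood at 58.8, 101, 70.4 and 65.5 RPKM, a mean of 73.8 ± 18.4. Eef1a1 exceeded Eef1a2 in each library, by 2.41, 1.38, 1.67 and 1.68 on the log2 scale per length, a mean of 1.79 ± 0.44 or 3.45-fold. By principal transcript length the mean was 2.26. The difference was larger than the spread between libraries, yet an exact sign-flip permutation test over 4 libraries cannot give a two-sided p below 0.125, so no ratio of a pair can pass 0.05 by that test. The shared windows of Eef1a1 noted above bear on its level, and their part in the ratio was not tested.

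The other subunits of eEF1 exchange the nucleotide on eEF1A. Eef1g, the structural subunit, stood at 94.3 ± 18.1 RPKM. Eef1b2, the exchange factor, stood at 84.1, 36.8, 44.8 and 21.5 RPKM, a mean of 46.8 ± 26.7, with replicate 1 high and replicate 4 low. Eef1d, the other exchange factor, stood at 4.39 ± 1.57 RPKM. Eef1b2 exceeded Eef1d by 3.32 ± 0.37 on the log2 scale, and Eef1g exceeded Eef1b2 (Eef1b2/Eef1g log2 ratio -1.16 ± 0.56), each in 4 of 4 libraries. The size of the ratio Eef1b2/Eef1d depended on the length, at 2.52 with the longest transcript, 2.21 with the principal transcript and 1.96 in CPM. Eef1e1, which also belongs to a complex of tRNA synthetases, stood at 5.27 ± 0.42 RPKM. Eef2k, the calcium-dependent kinase that inactivates eEF2, was low at 1.96, 2.45, 1.45 and 0.430 RPKM, a mean of 1.57 ± 0.87. Eef2kmt had 13, 14, 6 and 1 counts.

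Eif5a and Eif5a2 encode the hypusine-modified factor that helps ribosomes past difficult stretches. Eif5a stood at 87.2, 92.0, 75.3 and 66.6 RPKM (mean 80.3 ± 11.5) and Eif5a2 at 43.8, 57.7, 55.6 and 48.4 RPKM (mean 51.4 ± 6.44), and the ranges do not overlap. Their log2 ratio was 0.64 ± 0.26 per union exon length and 1.37 by the principal transcript, and the sign turned to -0.44 in CPM, since Eif5a2 has 5027 exon bases against 2377 in Eif5a. So more reads came from Eif5a2, and more reads per base from Eif5a.

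Among genes of start site selection, Eif1 led at 129, 81.5, 88.4 and 62.9 RPKM (mean 90.4 ± 27.7). Its paralog Eif1b stood at 106, 81.4, 69.1 and 27.3 RPKM (mean 71.0 ± 33.0). The pair was level in replicate 2, and Eif1 was clearly higher in replicate 4. The log2 ratio Eif1/Eif1b was 0.46 ± 0.52, less than its SD, and 0.21 without replicate 4. By the length of the principal transcript it was 1.01, so its size depends on the gene model. Eif1a exceeded the X-linked Eif1ax by 1.99 ± 0.39 on the log2 scale in 4 of 4 libraries (20.4 ± 5.07 and 5.31 ± 2.20 RPKM), and by 2.51 with the principal transcript length. Eif5, the GTPase activator of eIF2, stood at 34.6 ± 12.3 RPKM, and Eif5b, which joins the large subunit, at 23.1 ± 7.20. The eIF2 subunit genes Eif2s1 (alpha) and Eif2s2 (beta) stood at 10.8 ± 3.15 and 12.2 ± 3.75 RPKM. Their log2 ratio of -0.16 ± 0.49 was within its SD, and Eif2s2 was higher in 3 of 4 libraries. By principal transcript length the ratio was -1.03, with Eif2s2 higher in 4 of 4 libraries. Eif6, which keeps the subunits apart, stood at 11.2 ± 3.57 RPKM, Eif2a at 10.1 ± 3.37, Eif1ad at 8.54 ± 3.67 and Eif2d at 2.63 ± 1.71.

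The exchange factor eIF2B has 5 subunits, and all 5 genes reached 1 CPM in every library. They ranged from Eif2b5, the catalytic subunit, at 13.6 ± 2.69 RPKM to Eif2b3 at 1.40 ± 0.83 RPKM, a 9.76-fold range. Eif2b3 has a union exon length of 6520 bases, and by principal transcript length it stood at 5.85 RPKM, with Eif2b4 lowest at 4.96 and Eif2b5 highest at 13.8 RPKM. Eif2b1 stood at 36.2, 31.0, 24.5 and 7.83 CPM, lowest in replicate 4. Eif2b2 stood at 8.46 ± 3.75 and Eif2b4 at 3.87 ± 1.07 RPKM. The subunits form 1 complex, and their protein was not measured.

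The eIF2 kinases were unequal. Eif2ak1 (HRI, the heme-regulated kinase) stood at 31.3, 28.3, 27.5 and 39.5 RPKM, a mean of 31.6 ± 5.49. Eif2ak4 (GCN2, the amino acid sensor) stood at 1.80, 2.04, 5.37 and 1.22 RPKM, a mean of 2.61 ± 1.87, with replicate 3 the high library. Eif2ak3 (PERK, the endoplasmic reticulum stress kinase) stood at 2.14 ± 0.42 and Eif2ak2 (PKR, the double-stranded RNA kinase) at 1.41 ± 0.66 RPKM. Eif2ak1 exceeded Eif2ak4 by a log2 ratio of 3.82 ± 1.10 in 4 of 4 libraries. The order among the 3 low kinases was not fixed, with log2 ratios of -0.69 ± 0.91 for Eif2ak2/Eif2ak3 and -0.07 ± 0.95 for Eif2ak3/Eif2ak4. Of the 5670 exon bases of Eif2ak1, 659 overlap opposite-strand genes, and their part in its level was not tested.

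All 14 eIF3 genes were detected, and 13 reached 1 CPM in every library. Their order turned with the length used. Per union exon length Eif3h led at 59.8 ± 17.7 RPKM, followed by Eif3c at 53.3 ± 12.8, Eif3g at 40.5 ± 3.03 and Eif3a, the largest scaffold subunit, at 36.1 ± 9.51. Eif3i and Eif3f stood at 29.6 ± 5.51 and 28.3 ± 10.3 RPKM. Eif3l, Eif3k, Eif3m and Eif3b lay between 13.4 and 4.77 RPKM. Lowest by this length were Eif3j1 at 2.74 ± 0.35, Eif3e at 2.21 ± 1.10, Eif3d at 2.19 ± 0.80 and Eif3j2 at 0.737 ± 0.26 RPKM. By principal transcript length Eif3i led at 97.6 RPKM, before Eif3h at 74.5, Eif3g at 72.9, Eif3a at 61.6 and Eif3c at 55.3 RPKM. By that length Eif3e, with 6719 union exon bases, stood at 9.87, Eif3d at 5.72, Eif3b at 5.43, Eif3j1 at 2.95 and Eif3j2 at 0.737 RPKM. Of the exon bases of Eif3d, a subunit that can bind caps, 2151 of 4968 overlap the antisense gene Gm17638, so its level is uncertain. Eif3j1 exceeded Eif3j2 by a log2 ratio of 1.92 ± 0.45, which rests on unequal unique sequence. Of the 2330 windows of Eif3j2 90.8% occur in Eif3j1, and of the 5364 windows of Eif3j1 39.4% occur in Eif3j2.

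In the cap-binding machinery the scaffold-like Eif4g2 was highest per union exon length. By principal transcript length Eif4a2 (210 RPKM) lay above it (167 RPKM). However, no transcript of Eif4g2 is marked as principal in the annotation. The coding transcript with its longest coding sequence was used instead, which has 7995 bases and is also its longest transcript. The order of Eif4g2 and Eif4a2 by that length is therefore uncertain. Eif4g2 (DAP5, which lacks the eIF4E-binding part; chr7:111067750-111083030, minus strand) stood at 160, 125, 103 and 138 RPKM, a mean of 131 ± 23.9. Eif4g3 stood at 36.6 ± 3.94 and Eif4g1, the classical scaffold, at 18.9 ± 4.43 RPKM. Each of the 3 pairwise orders held in 4 of 4 libraries, with log2 ratios of 1.83 ± 0.38 for Eif4g2/Eif4g3, -2.81 ± 0.62 for Eif4g1/Eif4g2 and -0.98 ± 0.32 for Eif4g1/Eif4g3. By principal transcript length Eif4g2/Eif4g3 was 1.33 and Eif4g1/Eif4g3 was -1.46. Among the helicases, Eif4a2 stood at 102, 84.8, 109 and 52.4 RPKM (mean 86.9 ± 25.1) and Eif4a1 at 24.9, 18.2, 19.1 and 17.3 RPKM (mean 19.9 ± 3.46). The lowest Eif4a2 library lay above the highest Eif4a1 library, and the log2 ratio Eif4a1/Eif4a2 was -2.09 ± 0.38, that is 4.26-fold in favour of Eif4a2. Eif4a3, the helicase of the exon junction complex, stood at 13.7 ± 2.63 RPKM, below Eif4a1 by 0.54 ± 0.25 on the log2 scale, or 1.33 by the principal transcript. The shared windows of Eif4a1 (33.3%) exceed those of Eif4a2 (12.7%), and their part in the ratio was not tested.

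Of the cap-binding genes, Eif4e stood at 20.3 ± 3.87, Eif4e3 at 8.94 ± 2.08 and Eif4e2 (4EHP, which competes for caps) at 7.80 ± 1.86 RPKM. Eif4e exceeded Eif4e3 by a log2 ratio of 1.20 ± 0.34 in 4 of 4 libraries. Eif4e exceeded Eif4e2 by 1.40 ± 0.31 per union exon length, but by the length of the principal transcript the ratio was -0.39, so no order is given for that pair. Eif4e2 and Eif4e3 were not separated (log2 ratio -0.20 ± 0.54), and by the principal length their ratio was 1.85. The helicase partners were steady, with Eif4b at 69.2, 62.6, 70.5 and 55.8 RPKM (mean 64.5 ± 6.77) and Eif4h at 42.4, 38.3, 39.1 and 36.1 RPKM (mean 38.9 ± 2.61). Their log2 ratio was 0.73 ± 0.09, and its sign turned with the longest transcript (-0.088) and with the principal transcript (-0.29).

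The eIF4E-binding repressors were represented by Eif4ebp2 among the 3 genes of that name. Eif4ebp2, the form best known from brain (chr10:61428491-61452661, minus strand), stood at 13.7, 11.3, 23.3 and 35.1 RPKM, a mean of 20.9 ± 10.9. It had 760, 671, 1409 and 2234 counts in replicates 1 to 4, where Eif4ebp1 had 1, 1, 1 and 0 and Eif4ebp3 had 0 in each. No ratio is given for these pairs, since Eif4ebp1 and Eif4ebp3 lie below 3 counts in every library. Eif4ebp3 shares 65.5% of its windows with a readthrough transcript, so its reads could be counted as ambiguous or for that gene. Eif4enif1, the eIF4E transporter, stood at 16.4 ± 4.12 RPKM.

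Termination and poly(A)-binding genes also had a leading copy. Etf1, which encodes eRF1, stood at 17.4 ± 2.44 RPKM. Gspt1, which encodes eRF3a, stood at 15.9, 13.4, 12.8 and 17.6 RPKM (mean 14.9 ± 2.24) and Gspt2, the intronless eRF3b gene, at 4.07, 5.0, 4.46 and 2.86 RPKM (mean 4.10 ± 0.91). Gspt1 exceeded Gspt2 by a log2 ratio of 1.88 ± 0.55, or 3.67-fold, with no overlap of the libraries. Pabpc1, the main cytoplasmic poly(A)-binding protein gene, stood at 29.1 ± 3.67 RPKM. It exceeded Pabpc4 (4.17 ± 2.99 RPKM) by a log2 ratio of 3.06 ± 0.91 and Pabpc5 (1.07 ± 0.43 RPKM) by 4.81 ± 0.35, each in 4 of 4 libraries. By the principal transcript these ratios were 3.86 and 6.03. Pabpc2 had no count. Of the regulators of that protein, the repressor Paip2 exceeded the activator Paip1, at 54.9 ± 13.6 against 9.88 ± 1.81 RPKM, with a log2 ratio Paip1/Paip2 of -2.46 ± 0.43 or 5.51-fold. By the principal transcript that ratio was -3.20.

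The La-related genes encode RNA-binding proteins, of which LARP1 binds mRNAs of the translation machinery itself. Larp1 stood at 27.7, 39.0, 45.4 and 47.2 RPKM, a mean of 39.8 ± 8.79. It exceeded Larp1b, at 1.90 ± 0.67 RPKM, by a log2 ratio of 4.44 ± 0.65 per union exon length and 2.19 by the principal transcript, in 4 of 4 libraries by either length. Larp4b stood at 10.4 ± 3.31, Larp7 at 10.2 ± 5.52, Larp6 at 7.87 ± 2.51 and Larp4 at 6.94 ± 0.84 RPKM. The log2 ratio Larp4/Larp4b was -0.54 ± 0.44, lower for Larp4 in 3 of 4 libraries.

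Of the 29 pairs planned, 26 had at least 3 counts for both genes in some library, and 21 of the 26 kept the same direction in 4 of 4 libraries. The exceptions were Eif4e2/Eif4e3, Eif2ak2/Eif2ak3, Eif2ak3/Eif2ak4, Eif2s1/Eif2s2 and Larp4/Larp4b. All 21 had the smallest exact sign-flip p that 4 libraries allow, 0.125. The length of a gene enters all 4 libraries alike, so this agreement does not settle an order that turns with the length. Among the 21 that holds for Eif4e/Eif4e2, Eif4b/Eif4h and Eif5a/Eif5a2. The ratio Eif1/Eif1b was only 0.00091 in replicate 2, and the split of reads between Eif3j1 and Eif3j2 is uncertain.

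**Figure D2:**
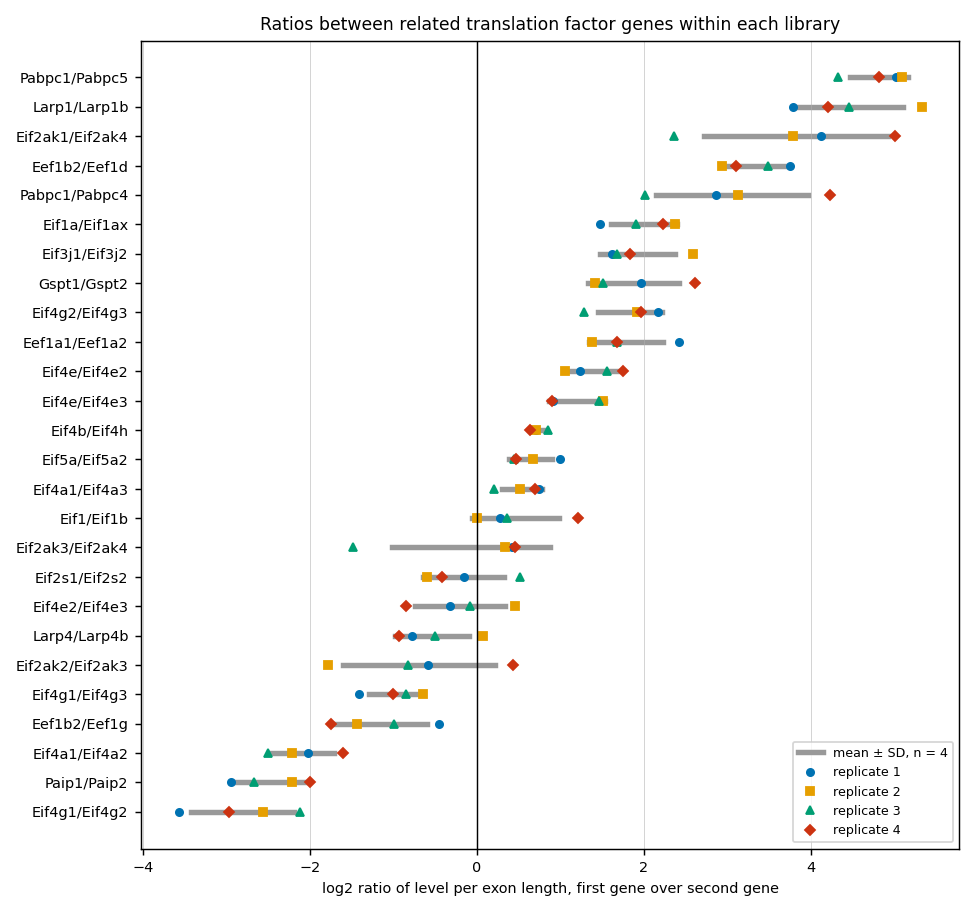
Log2 ratio of the level per exon length of the first gene over the second, for the 26 pairs with enough counts; symbols are replicates 1 to 4 and grey bars are mean ± SD (n = 4). The libraries of 21 pairs lie on 1 side of the zero line, and those of the 5 pairs around Eif2s1/Eif2s2 cross it.

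Each library was then set against the other 3 to ask whether members moved in it (edgeR's quasi-likelihood test over 15083 genes, Benjamini-Hochberg adjustment, threshold 0.05). A lone library has no spread of its own, so each test takes its spread from the other 3 and assumes that the lone library varies like them. Of 73 members tested, 0 passed in replicate 1, beside 0.0199% of all genes tested, and 0 in replicate 2, where 0% of all genes passed. In replicate 3 it was again 0 members, beside 0% of all genes, and in replicate 4 it was 0 members, beside 0.0464%. DESeq2's Wald test called 0, 0, 0 and 2 members, the last being Eif1b (adjusted p = 0.0278) and Eif3k (adjusted p = 0.0487), beside 0.186, 0.0267, 0.675 and 3% of all genes it tested. At an unadjusted p under 0.05 in edgeR, 1, 0, 3 and 11 members passed in replicates 1 to 4, beside 3.3, 0.517, 7.01 and 14.7% of all genes. By direction, 1 member was higher and 0 lower in replicate 1 (all genes: 1.68% higher, 1.62% lower), 0 and 0 in replicate 2 (0.252% higher, 0.265% lower), and 3 higher and 0 lower in replicate 3 (3.53% higher, 3.49% lower). For replicate 4 the 11 members are 15.1% of the 73, near the share of all genes. Its 7 lower members were Eef2k, Eif2d, Eif2b1, Eif3k, Eif1b, Eef1b2 and Eif4a2 (9.59%, beside 7.56% of all genes lower), and the 4 higher ones were Eif3a, Larp4b, Eif5b and Eif4ebp2 (5.48%, beside 7.17% higher).

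Eif1b was lower in replicate 4, with 30.7 CPM against 120, 91.6 and 77.7 CPM in replicates 1 to 3. Its log2 fold change was -1.48 ± 0.41 (SE; edgeR, unadjusted p = 0.0034, adjusted p = 0.189). Eif3k, a peripheral eIF3 subunit gene, stood at 48.6, 36.5, 32.3 and 10.7 CPM, a log2 fold change in replicate 4 of -1.70 ± 0.53 (edgeR, adjusted p = 0.211). For these 2 genes replicate 4 is the low library and the other 3 do not reach its value. Eif4ebp2 stood at 79.0, 65.1, 135 and 203 CPM, higher in replicate 4 by 1.27 ± 0.41 on the log2 scale (edgeR, adjusted p = 0.226). Without replicate 3 it was called, at 1.69 (edgeR, adjusted p = 0.0441), and with no filter on low counts both Eif4ebp2 (adjusted p = 0.0256) and Eif1b (adjusted p = 0.0475, edgeR) were called. The remaining lower members had log2 fold changes from -0.75 for Eif4a2 to -2.02 for Eef2k in replicate 4, and the remaining higher ones 0.79 for Eif3a, 0.87 for Larp4b and 0.89 for Eif5b, whose exons overlap Rev1 on the opposite strand.

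In replicate 3 the members past an unadjusted p of 0.05 were Eif2ak4, Pabpc4 and Eif2d, all higher. Eif2ak4 stood at 40.1 CPM there, against 13.4, 15.2 and 9.10 CPM in replicates 1, 2 and 4, a log2 fold change of 1.72 ± 0.57 (edgeR, adjusted p = 0.509). Pabpc4 stood at 34.1 CPM, against 14.1, 12.8 and 6.19 CPM (log2 fold change 1.69 ± 0.62, adjusted p = 0.574, edgeR). Eif2d, an initiation factor that can place tRNA without eIF2, stood at 36.3 CPM against 19.0, 16 and 6.10 CPM (1.48 ± 0.63, adjusted p = 0.661, edgeR). For each of these 3 genes replicate 3 was the highest library and replicate 4 the lowest, as for the summed Purkinje cell, granule cell and astrocyte markers. The other lists differed. Summed oligodendrocyte, microglia and inhibitory neuron markers were highest in replicate 3 but lowest in replicate 1. Vessel markers were highest in replicate 1 and lowest in replicate 2. Purkinje cell markers had 3 of 7 tested genes higher in replicate 3 and 3 lower in replicate 4 at an unadjusted p under 0.05, and inhibitory neuron markers 4 of 6 higher in replicate 3 and 4 lower in replicate 4. Their part in the levels of these members was not tested. In replicate 1 the only such member was Eef1b2, with a log2 fold change of 1.10 (edgeR, unadjusted p = 0.024).

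Fold changes in replicate 4 also went with gene length. The 25 members shorter than 3000 exon bases had a median log2 fold change of -0.33 there, and 19 of 25 were lower. The 23 members of at least 6000 bases had a median of 0.13, and 13 of 23 were higher. Over all genes tested the medians were -0.56 and 0.10. The rank correlation of fold change with length across genes was 0.29 over the 73 members and 0.23 over 14095 genes in replicate 4, and -0.25 and -0.13 in replicate 1. In replicate 2 it was -0.17 over members and -0.07 over all genes, and in replicate 3 it was -0.07 over members and 0.08 over all genes, of opposite sign. Genes of 1 library share depth and RNA handling, so these are descriptions without a test. Eif1b is the shortest tested member at 1125 bases. With each library's length trend taken out, an alternative added after the data were seen, its log2 fold change in replicate 4 was -0.79 (edgeR, unadjusted p = 0.054).

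**Figure D3:**
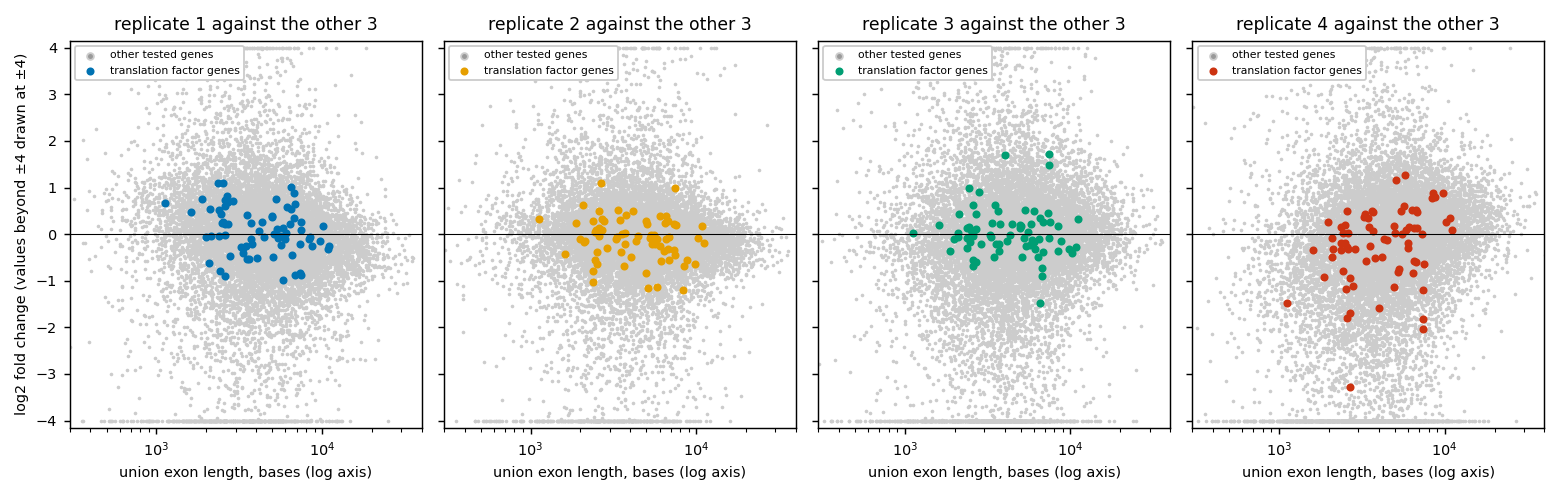
Log2 fold change of each library against the other 3 (edgeR; values beyond 4 in size drawn at the edge) by union exon length in bases (log axis), for translation factor genes (coloured) and other tested genes (grey). In replicate 4 the shorter members lie mostly below 0, with a median of -0.33 under 3000 bases; the lowest coloured point there is Eef2kmt, with 1 count.

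Spread between libraries was described by edgeR's biological coefficient of variation, the part of the spread beyond counting noise. Its median over 72 members was 0.317, beside 0.387 over 11227 genes in the fit, and 49 of 72 members lay below the latter. This measure falls with level over all genes, and the members are more abundant than most, so the difference is not separate from their level. The steadiest were Eif4h at 0.262, Eif4b at 0.263, Eef1a1 at 0.264, Eif4g3 at 0.266 and Eif5a at 0.267, all at the floor of the trend. The most variable were Eif2ak2 at 0.539, Eif2b3 at 0.539, Eef2k at 0.537, Pabpc5 at 0.516 and Pabpc4 at 0.512, genes of 2.60 to 16.8 CPM on average. On the plain scale the order differed. The smallest SDs were 6.71% of the mean for Eif4h, 7.48% for Eif3g and 8.05% for Eef1e1, where Eef1a1 had 18.4% and Eif5a 14.4%. The largest SDs among tested members were 73.7% of the mean for Eef2kmt, a gene of few counts, 71.9% for Eif2ak4, 71.7% for Pabpc4 and 65.0% for Eif2d. Eef1b2 and Eif4ebp2 were the abundant members with the widest spread, with SDs of 57.1% and 52.1% of their means.

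**Figure D4:**
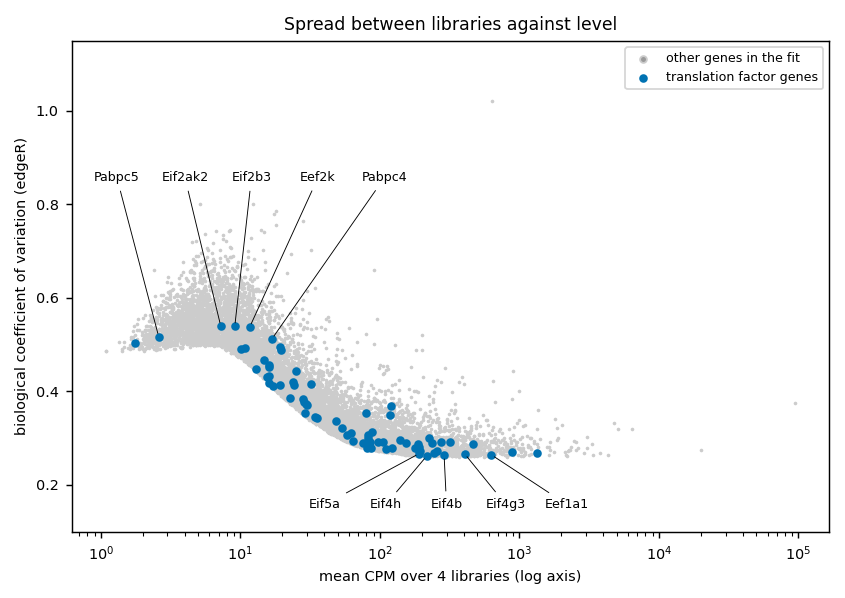
Biological coefficient of variation between the 4 libraries (edgeR) against mean CPM (log axis), for translation factor genes (blue) and other genes in the fit (grey); the 5 lowest and 5 highest members are named. The 5 steadiest members lie among the abundant genes at the lower edge, and the 5 most variable, of 2.60 to 16.8 CPM, lie among the scarce ones.

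Genes that act on these factors were read from 4 lists. Of 19 genes of mTORC1 and S6 kinase signalling, which phosphorylates eIF4E-binding proteins, 17 reached 1 CPM in every library, led by Pdpk1 at 30.8 ± 5.50, Rragd at 26.7 ± 12.6 and Rragc at 23.6 ± 6.37 RPKM. Of 14 targets of the integrated stress response, which eIF2 phosphorylation sets off, 10 did, led by the transcription factor gene Atf4 at 58.6 ± 21.1, Asns at 26.4 ± 5.74 and Psat1 at 19.0 ± 6.80 RPKM. Of 19 measured cap-binding, eIF4E-kinase and repressor genes all 19 did, led by Cyfip2, a partner of FMRP, at 233 ± 36.6, Cpeb3 at 49.0 ± 4.50 and Cpeb4 at 32.8 ± 3.14 RPKM. Of 19 measured genes of factor modification, recycling and rescue 17 did, led by Impact, an inhibitor of GCN2, at 119 ± 6.44, Dph3 at 27.9 ± 6.29 and Abcf1 at 23.8 ± 6.95 RPKM. Impact stood at 593, 602, 586 and 659 CPM in replicates 1 to 4. Per union exon length the GCN2 gene Eif2ak4 stood at 2.61 ± 1.87 RPKM, and the protein of neither gene was measured.

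Called genes of these 4 lists numbered 0 in each of the 4 library comparisons (edgeR, adjusted p under 0.05), beside 0.0199, 0, 0 and 0.0464% of all genes. DESeq2 called Rragd in replicate 4, beside 3% of all genes, and Pelo in replicate 3, beside 0.675%, and no other gene of the lists. At an unadjusted p under 0.05 in replicate 4, 7.17% of all genes were higher and 7.56% lower. In that comparison the mTORC1 list had 0 genes higher and 2 lower of 18 tested, and the stress response list had 1 higher and 1 lower of 12. In the same comparison the cap-binding list had 2 higher and 0 lower of 19, and the modification list 1 higher and 3 lower of 19. Median log2 fold changes in replicate 4 were 0.11, -0.65, 0.03 and 0.24 for these lists in the same order, beside -0.16 over all genes tested.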

How the data were processed

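Ribosome-bound RNA of 4 immunopurified libraries (1 group) was analysed. The deposited files hold whole-number counts per gene symbol, made by the authors with STAR 2.0.0e and HTSeq on mm10, per the submitters' processing notes. The annotation, strand setting and read length were not given in the sources used here. HTSeq summary rows were left out of totals and tests (no feature: 14.1 to 21.1% of counted reads).

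CPM used all 32531 named genes. Exon lengths came from GENCODE M21 (same build), which matched 73.4% of names and 77 of 78 members. Exact copies were searched among annotated transcripts with windows of 50 bases, not in a genome sequence. Pair ratios added 0.5 counts. Tests of a library against the remaining 3 used R 4.3.3 and edgeR 4.0.16: filterByExpr, TMM, robust glmQLFit and glmQLFTest, two-sided, threshold 0.05, with 2 residual degrees of freedom. The code was tested on simulated data. Standard errors were derived through the F value. DESeq2 1.42.0, other scalings, no filter, other lengths and left-out libraries were alternatives; the principal transcript length and the length trend were added after the data were seen. No libraries were copies (chi-square per degree of freedom 32.9 to 119).

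Members, pairs and lists were chosen with earlier results of these data known. The text names every gene in a pair, the highest 10 and lowest 5 members by level, members called in a library, the 5 most and 5 least variable, subunit extremes and the top 3 genes of each list; others appear to account for all 78, and those with an unadjusted p under 0.05 were named after their values were seen.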

Additional observations from a re-analysis of the deposited data

Results flagged for a closer look

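Libraries far from the others were sought in 74 members and 26 pair ratios with Dixon's ratio at its 95% critical value, which chance exceeds in about 1 in 20 groups. Of the members, 5 passed, and of the ratios 1. No share over all genes is given for this rule, so the flags do not set the members apart from other genes. Eif3f, an eIF3 subunit gene, stood at 126 CPM in replicate 1 against 62.3 to 70.5 CPM in the others. Larp7, which encodes a protein that binds the small nuclear RNA 7SK, stood at 43.5 CPM in replicate 1 against 15.2 to 19.7 CPM. In replicate 4, Eif4e2 was lowest at 37.7 CPM against 63.9 to 67.6 CPM, and Eef1e1 was highest at 19.2 CPM against 16.2 to 16.7 CPM. The Eef1e1 values rest on 159, 167, 174 and 211 counts in replicates 1 to 4, a small difference at that depth. Eif4ebp1 was at 0 CPM in replicate 4 against 1 count in each other library, which is within counting noise. The log2 ratio Eif2ak3/Eif2ak4 was lowest in replicate 3, at -1.49 against 0.33 to 0.46, the library in which Eif2ak4 was high.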

How the results depend on the processing

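The number of members reaching 1 CPM in every library was 71, and ranged from 67 (5 CPM) to 72 over the alternatives. The number of pairs with the same direction in every library used was 21 and ranged from 20 to 23. The median biological coefficient of variation of members was 0.317 and ranged from 0.280 (without replicate 4) to 0.355 (without replicate 2), below that of all genes each time. Called members stayed at 0 in replicates 1 to 3 under every alternative run. In replicate 4 there were 2 with DESeq2, 2 with no filter on low counts, and 0 to 1 when another library was left out. Over all genes, calls in replicate 4 numbered 7 in the main test, 0 with library totals only, 415 with DESeq2, 416 with no filter and 74 to 125 with another library left out. In replicate 3 they numbered 0, with 91 in DESeq2, 86 with no filter and 1 to 33 with another library left out, in replicate 2 they numbered 0, with 5 in DESeq2, and in replicate 1 they numbered 3, with 25 in DESeq2, 32 with no filter and 7 to 31 with another library left out. Library totals in place of TMM moved the median log2 fold change of all genes by 0.20 in replicate 1 and -0.16 in replicate 4. The cause was not tested. In each of these tests, the main one included, the lone sample is assumed to vary like the others.

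The log2 ratio Eif4e/Eif4e2 turned to -0.39 with the principal transcript's length, Eif4b/Eif4h to -0.088 with the longest and -0.29 with the principal transcript, and Eif5a/Eif5a2 to -0.44 without length; other lengths enter these by construction. Beside these, 13 of 26 ratios moved by more than their SD with the principal transcript, 11 with the longest transcript and 10 without length; all kept their sign but Eif4e2/Eif4e3, which turned from -0.20 to 1.85, 0.91 and 1.37. With 5 counts added, or any library left out, 26 of 26 ratios moved by less than their SD. No paired analysis was possible because there is only 1 group. Counts of a few reads (Eef2kmt, Eif4ebp1, Eif3j2) are too low at this depth to show a difference between libraries.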
